A study of Brassica napus with 6 samples.

Results

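Of the 100919 genes counted in cotyledons of oilseed rape (Brassica napus), 123 were well expressed in the wild type (WT) and at least 4-fold lower in a bnsdp1 mutant, without reaching the very top of the range. Their choice rested on CPM (counts normalised in the usual way: the reads of a gene scaled to the total counted in genes of that library). A member had a mean of at least 50 CPM in WT and at least 0.5 CPM in the mutant, a mean over the 6 libraries under 500 CPM, a WT mean at least 4 times the mutant mean, and a lowest WT value above the highest mutant value. Because these values chose the members, the levels and folds below describe them and no test of the difference is given for them.

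The mutant group held 3 libraries of the line named bnsdp1#CR88, and the WT group held 3 libraries. The labels do not say whether replicates were grown separately, which cultivar was used or how many independent lines were made. All 6 libraries were poly(A) RNA of cotyledons from seedlings kept 4 days in the dark on medium with 1% sucrose and then 6 h under normal conditions, so both genotypes share the sugar supply and the move out of darkness. The study set out to learn what an altered lipid metabolism of the cotyledon does to gene expression at this stage. Library totals ran from 48288744 to 65550668 counts.

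SDP1 (SUGAR-DEPENDENT1) is known from Arabidopsis as a lipase for the first step of oil use after germination, which feeds the seedling until its cotyledons turn green and photosynthesise. Seedlings of Arabidopsis that lack it establish poorly unless sugar is supplied. B. napus joins an A and a C subgenome from its parent species, so most genes have a related copy on the other subgenome. The files give identifiers without gene names, and a table of 123214 named genes of another assembly (Da-Ae) matched 0 of the identifiers. What the members encode, the SDP1 copies themselves and marker genes of the cotyledon are therefore not analysed here. In whole cotyledons, fewer cells of a type and less RNA per cell cannot be told apart.

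The members made up 1.78% ± 0.337 of all counts in WT and shrank to 0.244% ± 0.0255 in the mutant (SD, n = 3 each). In single libraries, their summed level was 2167, 2484 and 2672 CPM in mutant replicates 1, 2 and 3, against 15685, 16087 and 21717 CPM in WT replicates 1, 2 and 3. Every mutant sum lay far below every WT sum, and the mean WT sum was 7.30 times the mean mutant sum. WT replicate 3 stood above the other WT libraries and mutant replicate 1 below the other mutant libraries. The 10 members with the highest WT level held 31.5% of the WT sum, so the summed fall was spread over many genes.

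BnaC01G0170900ZS, on chromosome C01 from 12472187 to 12473354 on the minus strand, had the highest WT level of all members. It had 102, 125 and 169 CPM in the mutant libraries, against 644, 845 and 954 CPM in the WT libraries. The libraries of the genotypes stayed far apart, with means of 132 ± 34.2 CPM in the mutant and 814 ± 158 CPM in WT (SD, n = 3 each), a ratio of WT to mutant of 6.17 and a log2 change, mutant over WT, of -2.62. The gene thus kept a level in the mutant that most members did not reach even in WT, whose median member had 89.7 CPM.

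BnaC07G0462000ZS, on chromosome C07 from 55868729 to 55870093 on the minus strand, showed the largest fold. It had 0.890, 0.928 and 1.01 CPM in the mutant libraries, against 66.7, 38.2 and 72.9 CPM in the WT libraries. Behind the mutant values stood 43, 51 and 55 reads, against 3788, 2505 and 3747 reads in WT. The mutant libraries were nearly level, while WT replicate 2 was well below the other WT libraries. Its means were 0.943 ± 0.0621 CPM in the mutant and 59.3 ± 18.5 CPM in WT (SD, n = 3 each), a ratio of WT to mutant of 62.8. Coordinates are those of the files; no build is named for them in the labels or headers.

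The size of the fall varied widely among the members. The ratio of WT to mutant means ran from 4.02 to 62.8 with a median of 7.26, which is a median log2 change, mutant over WT, of -2.86. Of the 123 members, 34 fell between 4-fold and 5-fold, 40 between 5-fold and 8-fold, 19 between 8-fold and 16-fold, 12 between 16-fold and 32-fold, and 18 at least 32-fold. The class from 8-fold to 16-fold was thus smaller than its neighbours on the lower side, and the 18 deepest falls formed a sizeable tail. The classes had similar WT levels: the median was 91.1 CPM in the mildest class and 79.6 CPM in the deepest. In the mutant, the median level was 20.1 CPM in the mildest and 2.03 CPM in the deepest class. Across members, fold and WT level were nearly unrelated (Spearman's rho -0.04 over 123 genes, which share the same 6 libraries).

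**Figure D1:**
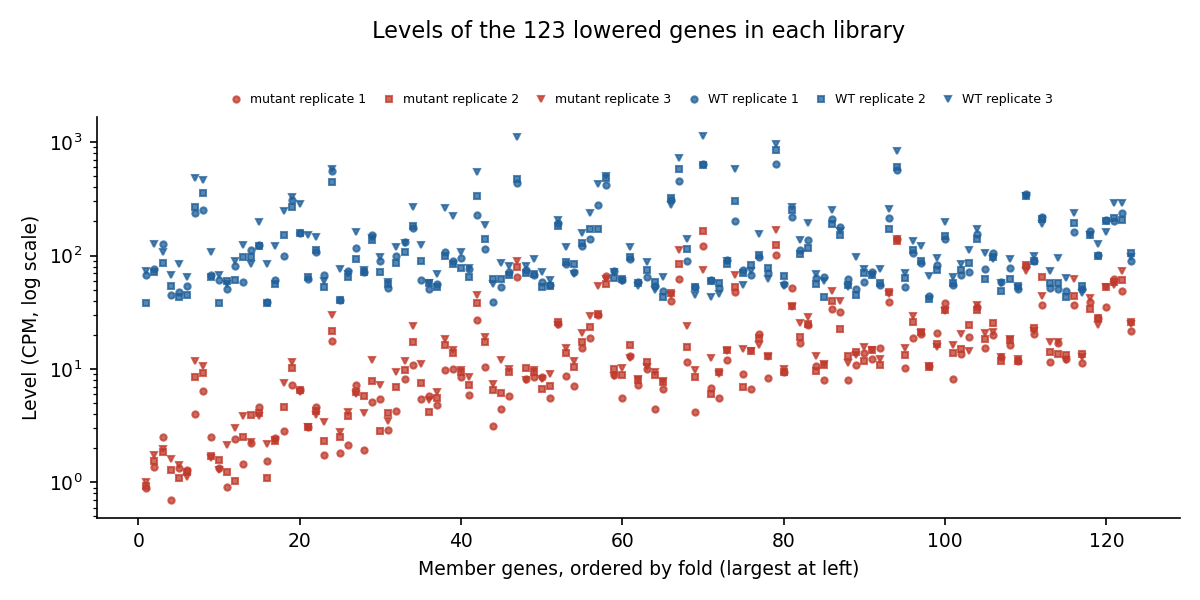
Level of each of the 123 members in CPM (log axis), with members ordered along the x axis by the ratio of WT to mutant means, from 62.8 at the left to 4.02 at the right; red symbols are the 3 mutant libraries and blue symbols the 3 WT libraries. The WT values keep about the same range from left to right while the mutant values climb, and the downward triangles of WT replicate 3 often top the WT values.

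The median member had 11.8 CPM in the mutant (range 0.943 to 139) and 89.7 CPM in WT (range 50.4 to 814). None was silent in the mutant: the fewest reads of any member in a mutant library were 34. A gap separated the genotypes in every member, with the lowest WT library at least 2.59 times the highest mutant library, a median of 5.29 times, and at least 4 times in 83 members. The requirement of no overlap removed 0 genes, and 0 genes with at least 50 CPM in WT fell under 0.5 CPM in the mutant, so the fold, the WT level and the upper limit alone set the membership.

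Just inside the fold threshold stood a member with a ratio of 4.02, and just outside it a gene with a ratio of 3.93. The lowest WT mean inside was 50.4 CPM, and the highest outside, among genes that met the other conditions, was 49.3 CPM. The upper limit left out 7 genes with a mean of 500 CPM or more, whose ratios ran from 4.23 to 18.8.

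Genes that met the conditions on level, whatever their fold, numbered 2976, and the members were 4.13% of these. The same rule with the genotypes exchanged found 278 genes that were raised at least 4-fold, 8.58% of the 3239 genes whose levels allowed it. Large rises of well-expressed genes were thus more frequent in these libraries than large falls. In edgeR's quasi-likelihood fit over 56385 genes, 26.2% were called lower in the mutant (Benjamini-Hochberg FDR under 0.05), as were 38.9% of the other eligible genes and all 123 members. Among the other eligible genes, all mutant libraries lay under all WT libraries in 46.6%. As the rule used this contrast, nothing is read from the members' calls.

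The frequency of members among eligible genes was compared over classes of WT level. They were 3.98% of the genes with 50 to 100 CPM in WT (73 of 1836; exact Clopper-Pearson 95% interval 3.13 to 4.97%), 3.63% from 100 to 200 CPM (27 of 744), 5.35% from 200 to 400 CPM (16 of 299) and 7.22% from 400 CPM (7 of 97; 2.95 to 14.3%). These intervals overlap, cover counting error only and treat genes as independent. The raised genes, graded by their mutant level, had shares of 5.93%, 11.1%, 13.6% and 23.5% over the same classes. The shares from 400 CPM cannot be compared with the others, for members or for raised genes. There the upper limit on the mean over all libraries removed unchanged genes above it from the eligible genes. Genes above it in the grading genotype stayed only if the other genotype was lower, which raises these shares by construction.

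The fall was also read in libraries that had not chosen the genes. The rule was applied to 2 mutant and 2 WT libraries and the fold was then taken from the mutant and the WT library held out, for each of the 9 choices. Between 107 and 134 genes were picked, of which 100 to 120 were among the 123 members. In the held-out libraries every picked gene was lower in the mutant, in all 9 choices. Among the other eligible genes, 55.1% to 63.2% were lower. The 9 choices reuse the same 6 libraries and largely the same genes, so they are not separate readings. The labels do not say whether replicates were grown separately. If they were not, a held-out library largely repeats the libraries that picked the genes, and their likeness is no independent support.

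The size of the fall was taken from the same readings, with the same limit. The median held-out ratio of WT to mutant was between 5.49 and 10.7, with a median of 7.58 over the 9 choices, beside 6.58 to 7.90 in the libraries that picked the genes. From 77.0% to 96.3% of the picked genes were again at least 4-fold lower, while 0.105% to 1.15% of the other eligible genes were. The deepest held-out fold came with mutant replicate 1 and WT replicate 3, and the shallowest with mutant replicate 3 and WT replicate 1. The smallest single held-out ratio was 1.21, in the choice of mutant replicate 3 and WT replicate 2.

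**Figure D2:**
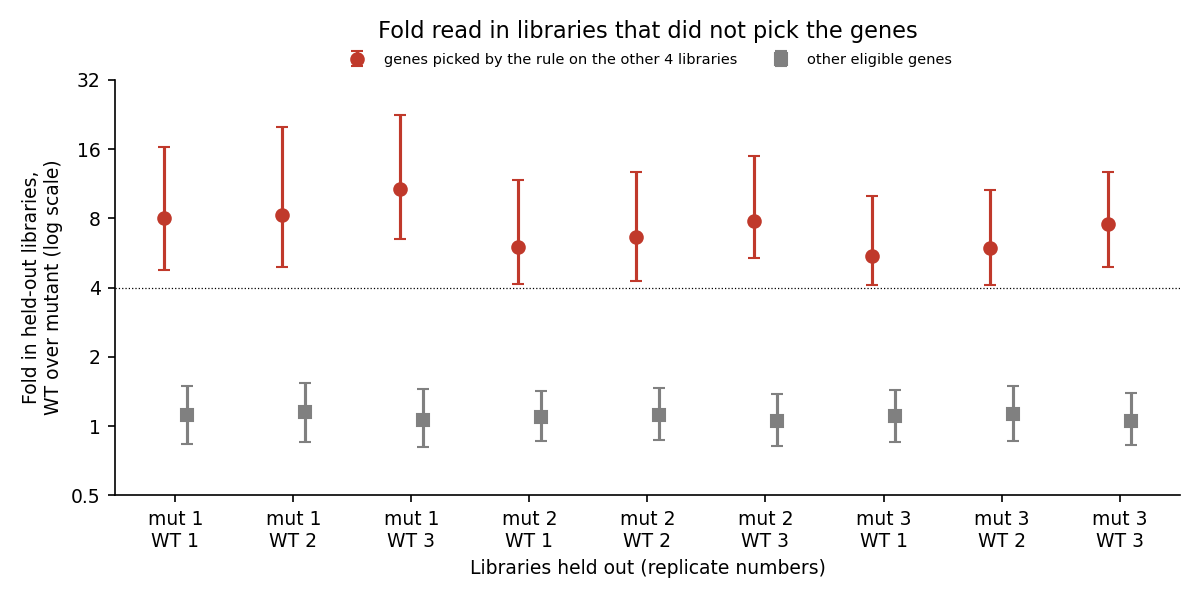
Ratio of WT to mutant in the held-out libraries (log axis) for each of the 9 choices of 1 mutant and 1 WT library, as medians with bars from the lower to the upper quartile over genes; red circles are genes picked by the rule on the other 4 libraries and grey squares the other eligible genes, and the dotted line marks 4. The red medians lie between 5.49 and 10.7 and the grey ones between 1.05 and 1.16.

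Members varied more between libraries of a genotype than the other eligible genes, whose mutant levels were higher (median 82.0 CPM, against 11.8 CPM for members). The median coefficient of variation (CV, SD over mean, n = 3) was 0.183 in the mutant and 0.165 in WT for members, against 0.0586 and 0.0703 in the mutant and WT for the other eligible genes. Single libraries carried much of the spread, read with the rule applied again and n = 2 in the reduced genotype. Without WT replicate 3 the median WT CV was 0.0747 for the 113 genes picked and 0.0400 for the other eligible genes. For genes picked without WT replicate 1 or 2 it was 0.180 and 0.171. Without mutant replicate 1 the median mutant CV was 0.0942 for the 118 genes picked and 0.0398 for the others. For genes picked without mutant replicate 2 or 3 it was 0.201 and 0.160. Leaving out the library that stands farthest off lowers a CV by itself. The picked genes thus stayed the more variable set, at a lower level. For the raised genes, the median CV was 0.0874 in the mutant and 0.110 in WT. Their median level in WT was 11.9 CPM, near that of the members in the mutant. For most members the spread exceeded counting error, as the CV expected from counting alone had a median of 0.0399 in the mutant and 0.0139 in WT. For the other eligible genes these medians were 0.0152 in the mutant and 0.0145 in WT. The members' CV was above that of counting in 113 members in the mutant and in all 123 in WT. From the mildest to the deepest fold class the median WT CV was 0.131, 0.138, 0.192, 0.143 and 0.299. The deepest class stood out and the others followed no steady order. In the mutant the median CV was 0.110, 0.219, 0.197, 0.252 and 0.249, lowest in the mildest class. Over all 123 members, fold and CV had a Spearman's rho of 0.31 in WT and 0.30 in the mutant.

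The spread had a direction that many members shared. WT replicate 3 was the highest WT library for 87 of the 123 members (70.7%), while for the other eligible genes it was the lowest in 57.9% and the highest in 25.2%. In the mutant, replicate 1 was the lowest library for 78 members (63.4%) and replicate 3 the highest for 75 (61.0%). For the other eligible genes these shares were 42.0% and 32.8%. Since the means in the rule include each library, the same was read with the genes picked without it.

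Picked without WT replicate 3, the rule gave 113 genes, and in that library their level was 1.17 times the mean of the other WT libraries in the median. It was higher in 83 of the 113 (73.5%), against 31.1% of the other eligible genes, whose median ratio was 0.940. Of the genes with a fold of at least 8 in the other libraries, 31.0% were at least 1.5 times as high in WT replicate 3 as in the other WT libraries (13 of 42), against 14.1% of those between 4-fold and 8-fold (10 of 71). Genes raised at least 4-fold showed no such lean, with a median log2 ratio of 0.01 in that library.

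Mutant replicate 1 leaned the other way. Picked without it, 118 genes had a median of 0.842 times the mean of the other mutant libraries there, and 36 of them (30.5%) were above that mean. For the other eligible genes the median ratio was 0.990. The lean grew with the fold, with a median log2 ratio of -0.18 between 4-fold and 8-fold and -0.40 from 8-fold upward. Mutant replicate 3 leaned upward by a like amount: 122 genes picked without it had a median of 1.20 times the mean of the other mutant libraries there, and 94 of them (77.0%) were above it. Its median log2 ratio was 0.11 between 4-fold and 8-fold and 0.43 from 8-fold upward, the largest lean of the 6 libraries in that class. In the raised genes mutant replicate 1 was high, with a median log2 ratio of 0.13, and 79.9% of them were above the mean of the other mutant libraries. Mutant replicate 2 was low in the raised genes by a like amount, with a median log2 ratio of -0.15 and 14.7% above that mean. With TMM scaling these medians were 0.10 for mutant replicate 1 and -0.09 for mutant replicate 2. In the members, WT replicate 3 thus lay on the far side of its genotype, and mutant replicates 1 and 3 on opposite sides of theirs. A gene enters a high fold class more readily when the libraries that pick it lie far apart, which works against the readings of mutant replicate 1 and WT replicate 3 and in favour of those of mutant replicate 3 and of WT replicates 1 and 2. Mutant replicate 1 and WT replicate 3 also had the lowest totals of their genotypes, with 48288744 counts in mutant replicate 1 and 51404121 counts in WT replicate 3. The part of depth in this lean was not tested.

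**Figure D3:**
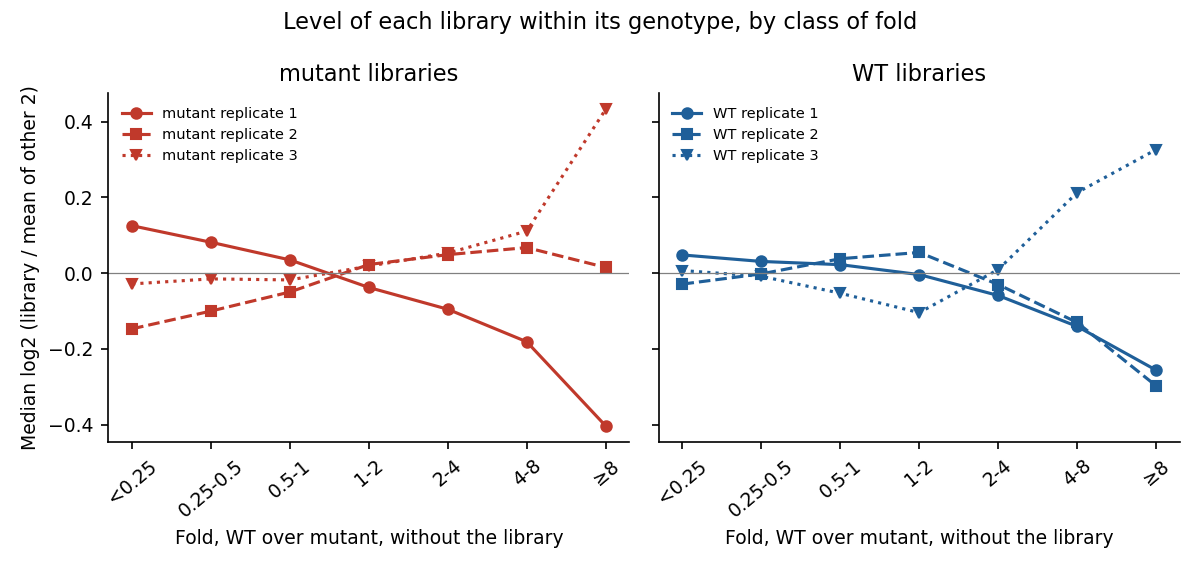
Median log2 ratio of each library to the mean of the other 2 libraries of its genotype (y axis) for genes with at least 50 CPM in either genotype, in classes of the ratio of WT to mutant taken without that library (x axis, raised genes left and lowered genes right); mutant libraries are on the left panel and WT libraries on the right. Mutant replicate 3 reaches 0.43, WT replicate 3 reaches 0.33 and mutant replicate 1 falls to -0.40 in the class of at least 8-fold.

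Single members show how differently the spread was placed. The member on C09 at 3.19 Mb had 3.11, 3.09 and 3.09 CPM in the mutant libraries, against 61.9, 65.1 and 153 CPM in the WT libraries. Its mutant values were the tightest of all members, and WT replicate 3 was far above the other WT values. The member on A01 at 29.3 Mb was the reverse, with 1.95, 5.77 and 4.08 CPM in the mutant libraries, against 71.8, 71.5 and 75.1 CPM in the WT libraries. The member on A04 at 24.5 Mb was steady in both genotypes, with 81.1, 81.9 and 72.6 CPM in the mutant libraries, against 349, 335 and 335 CPM in the WT libraries.

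Both subgenomes were represented, with 55 members on A chromosomes (44.7%; exact 95% interval 35.7 to 53.9%) and 68 on C chromosomes (55.3%). Of the other eligible genes, 48.4% were on A chromosomes, as were 48.9% of the raised genes, and both shares lie inside the interval of the members. The A members had a median ratio of WT to mutant of 7.63 and the C members 6.64, and their median WT levels were 98.8 CPM and 76.7 CPM. By level, the A members held 48.2% ± 1.21 of the members' summed CPM in the mutant and 48.0% ± 0.709 in WT (SD, n = 3 each), a difference smaller than the spread between libraries. No member lay on an unplaced sequence, where 1 of the other eligible genes lay. How reads that match both an A and a C copy were counted is not stated, so a member's own level is uncertain if the other subgenome holds a near-identical copy.

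All 19 chromosomes held members, from 1 on A06 to 11 on C07. As a share of the eligible genes of the chromosome, C02 stood highest with 7.84% (8 of 102; exact 95% interval 3.45 to 14.9%), followed by C07 with 7.19% (11 of 153; 3.64 to 12.5%). A06 stood lowest with 0.658% (1 of 152; 0.0167 to 3.61%). The interval of A06 alone left out the share over all chromosomes, 4.13%. With 19 chromosomes set side by side, such a case can arise without any difference between them, and it was chosen after the values were seen. Of the raised genes, A06 held 15, which is 8.52% of its eligible genes, near the 8.58% over all chromosomes.

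**Figure D4:**
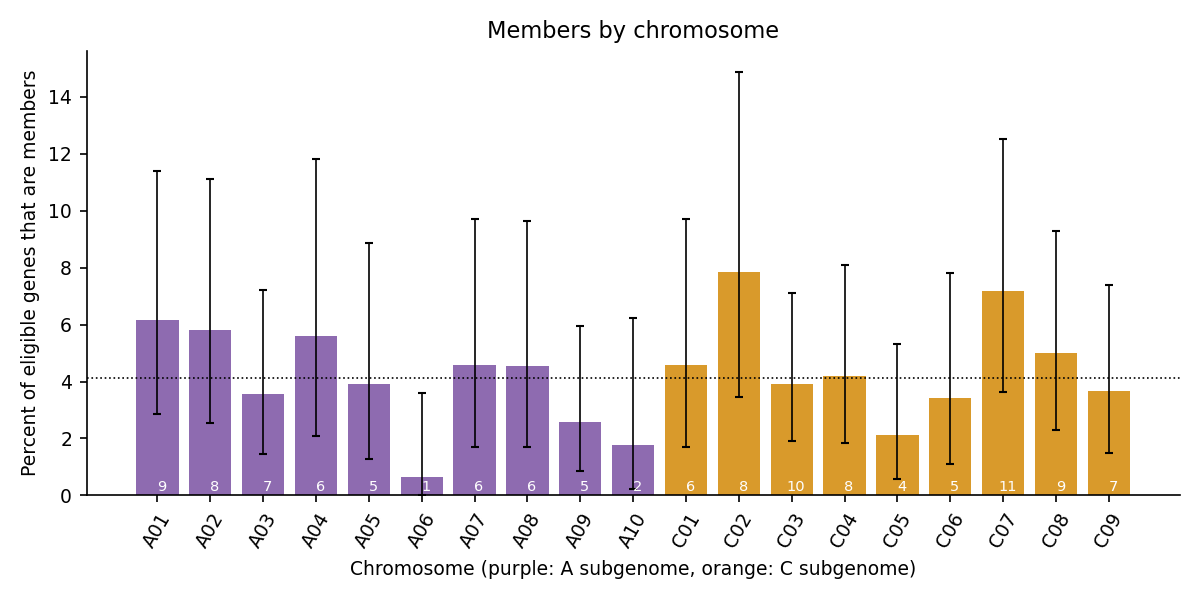
Percent of the eligible genes on each chromosome that are members, with exact 95% binomial intervals that cover counting error only; the white number is the count of members, purple bars are A chromosomes, orange bars C chromosomes, and the dotted line is the 4.13% over all eligible genes. The bars run from 0.658% on A06 to 7.84% on C02, and all intervals but that of A06 include the line.

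Whether members lay close to each other was read in gene order. In no case was the next gene in order another member (0 of 123; the exact 95% interval reaches 2.95%), and the 0.351% of other eligible genes that had a member next door lies inside that interval. Another member within 10 genes was found for 6 members (4.88%; 1.81 to 10.3%), against 2.73% of the other eligible genes (2.17 to 3.40%), and these intervals overlap. Of the raised genes, 16.2% had another raised gene within 10 genes and 4.32% had one next door. The raised set is the larger and so has more chances to lie close.

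The 6 members with a close partner formed 3 pairs. On A08, genes starting at 26438281 and 26458515 lay 2 places and 16.4 kb apart, on opposite strands, with ratios of WT to mutant of 40.6 and 6.94. On C01, BnaC01G0170900ZS and the member starting at 12514729 lay 3 places apart on the same strand. The second of these had 6.38, 9.13 and 10.7 CPM in the mutant libraries, against 254, 353 and 459 CPM in the WT libraries, a ratio of 40.7 beside the 6.17 of BnaC01G0170900ZS. On C03, genes starting at 6057730 and 6098980 lay 5 places apart on opposite strands, with ratios of 6.19 and 7.11. A further member on C03, starting at 6152147 with a ratio of 7.47, lay beyond the limit of 10 genes and is not counted here. The partners of the A08 and C01 pairs differed widely in fold, and those of the C03 pair were alike.

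The 87 expressed genes next door (mean of at least 2 CPM) had a median log2 change, mutant over WT, of -0.09, against 0.01 for all expressed genes other than members. Of these 87, 30 were called lower (34.5%) and 21 higher (24.1%) in edgeR's fit, where 28.2% of all expressed non-members were called lower and 32.8% higher. At least 2-fold falls were found in 13.8% of the next-door genes and in 10.4% of all expressed non-members. No member's span overlapped another annotated gene of either strand, against 1.93% of the other eligible genes. Transcripts that are not annotated or run past their annotated ends were not examined. The strand setting used for counting is not stated.

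Toward chromosome ends, the members' median distance from the nearer end of the annotated genes was 6.62 Mb, against 8.29 Mb for the other eligible genes. No member lay in the last 1 Mb, where 6.87% of the other eligible genes and 7.55% of the raised genes lay, but 3 members lay just inside, at 1.03 to 1.06 Mb. In the 151 genes that met every other condition with 25 to 50 CPM in WT, 10 (6.62%) lay in the last 1 Mb, against 6.32% of the other genes of that level. The lack of members there did not extend to this next lower class. The plus strand carried 51 members (41.5%) and 49.4% of the other eligible genes.

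Stretches of A07, C06 and A01 had been set apart because their genes shifted together in these same libraries, and 8 members (6.50%) lay in them, against 4.38% of the other eligible genes. A01 held 4 members among 31 eligible genes from 4 to 9 Mb and 1 among 33 from 0 to 3 Mb. The A07 stretch held 2 among 43 and the C06 stretch 1 among 26, where members were 4.13% of all eligible genes. The expressed genes of either A01 stretch had a median log2 change, mutant over WT, of -0.35. Stretches that shifted downward in these libraries favour genes picked for a fall, so these shares are a description only. On A07 at 29.7 Mb, a member had 121, 164 and 74.3 CPM in the mutant libraries, against 636, 625 and 1141 CPM in the WT libraries. On C06 at 49.0 Mb, a member had 64.5, 78.8 and 90.0 CPM in the mutant libraries, against 439, 475 and 1100 CPM in the WT libraries. Both were highest in WT replicate 3 by a wide margin, whereas mutant replicate 3 was the lowest mutant library on A07 and the highest on C06. The 363 expressed genes of C06 from 46 to 51 Mb had a median log2 change, mutant over WT, of 0.43, and the 426 of A07 from 27 to 32 Mb one of -0.56, so the C06 member changed in the opposite direction to its stretch. Outside all of these stretches, 115 members had a median log2 change of -2.86, as all members had.

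The members' median span was 1557 bp (quartiles 731 and 2368 bp), against 2116 bp for the other eligible genes and 2307 bp for the raised genes. Of the 123 members, 49 (39.8%) spanned under 1000 bp, against 17.7% of the other eligible genes and 16.5% of the raised genes. The length is the distance from gene start to gene end in the files, introns included.

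As a share of eligible genes, members were 14.2% of those under 500 bp (16 of 113; exact 95% interval 8.32 to 22.0%) and 7.47% of those from 500 to 1000 bp (33 of 442; 5.19 to 10.3%). From 1000 to 2000 bp they were 3.43%, from 2000 to 4000 bp 3.13%, and from 4000 bp upward 2.29% (12 of 524; 1.19 to 3.97%). The intervals of the shortest and the longest class lie apart, but they treat genes as independent. Under 500 bp, spans of 312, 344, 414 and 426 bp each occurred in more than 1 member, on different chromosomes. Whether these members are copies of each other was not tested. Genes under 500 bp were also often raised at least 4-fold, in 17.0% (18 of 106), and those from 500 to 1000 bp in 6.93%. The 151 genes of the next lower WT level showed a similar length pattern, with 28.5% under 1000 bp, against 13.0% of the other genes of that level. No test over genes was made, as genes of one family can share both length and response.

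**Figure D5:**
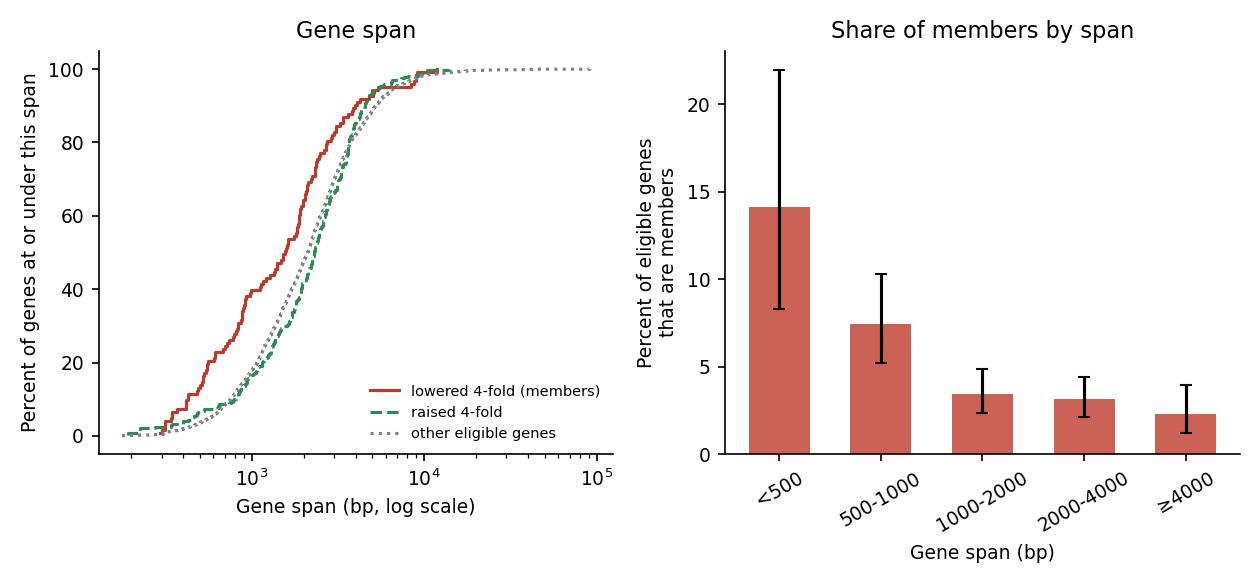
Left, percent of genes at or under a given span in bp (log axis) for the 123 members (red line), the 278 raised genes (green dashes) and the other eligible genes (grey dots); right, percent of eligible genes in each class of span that are members, with exact 95% binomial intervals that cover counting error only. The members' curve lies to the left of both others over most of its course, and the share of members falls from 14.2% under 500 bp to 2.29% from 4000 bp upward.

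Fold and length were nearly unrelated among the members (Spearman's rho 0.09 over 123 genes, which share the same 6 libraries). The class of 5-fold to 8-fold had the shortest genes, with a median of 910 bp, and the class of 16-fold to 32-fold the longest, with 2019 bp. The shortest member, 294 bp on C08 at 4.05 Mb, had 10.9, 14.1 and 13.2 CPM in the mutant libraries, against 50.2, 44.9 and 97.4 CPM in the WT libraries. The longest, 11933 bp on C03 at 67.2 Mb, had 5.43, 7.50 and 11.1 CPM in the mutant libraries, against 60.9, 89.9 and 123 CPM in the WT libraries. Per kb of gene span, the median member had a level of 8.76 CPM in the mutant and 73.1 CPM in WT, and the other eligible genes had medians of 41.0 CPM in the mutant and 44.4 CPM in WT. On this scale the members stood above their peers in WT and below them in the mutant. Neither is a separate result. The rule itself sets the low mutant level. In WT the levels per gene were alike, with medians of 89.7 CPM for members and 82.5 CPM for the others, and the members' spans were shorter.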

How the data were processed

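The authors deposited raw counts of reads per gene for each library, with the columns that featureCounts writes, per the file headers. The submitters' processing notes name fastp, HISAT2 and featureCounts; versions, genome build, strand setting and treatment of reads with several matches remain not given in the sources used here. All 100919 genes had a length equal to their full span, so counts can include introns.

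Counts were divided by the library's total and multiplied to CPM (pandas 2.3.3, Python 3.11.15), and the rule was applied to these. Genes meeting its conditions on level are called eligible. The members and comparisons were chosen with earlier results of these data known. The background fit used edgeR 4.0.16 (R 4.3.3): filterByExpr, TMM, quasi-likelihood F test without covariate, Benjamini-Hochberg FDR under 0.05. On simulated counts of 56385 genes it called 99% of 100 genes lowered 4-fold and 85% of 100 lowered 2-fold, with 17 false calls. In the data 26.2% of genes were called lower and 25.5% higher, a setting that the simulation did not cover. DESeq2 1.42.0 was an alternative. Exact intervals are Clopper-Pearson (scipy 1.17.1). Identifiers printed are the member with the highest WT level and that with the largest fold; other members, named by position, were chosen after their values were seen. Libraries of a genotype differed by more than sampling noise (chi-square per gene of at least 7.30). The labels do not state that replicates were separate cultures, so every call reflects the variation of these libraries, possibly technical.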

Additional observations from a re-analysis of the deposited data

How the results depend on the processing

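The 123 members became 114 with TMM scaling and 113 with DESeq2 size factors, 178 with a fold of at least 3 and 89 with at least 5, 274 with a WT mean of at least 25 CPM and 50 with at least 100 CPM. Leaving out single libraries gave 113 to 128, of which 105 to 120 were among the 123; the lowest of both came without WT replicate 3. The median log2 change moved to -2.32 at a fold of at least 3 and to -3.15 at 5, as the rule itself sets it. The median CV in WT was 0.131 at a fold of at least 3 and 0.191 with at least 100 CPM, and 0.0747 to 0.180 when single libraries were left out, the lowest without WT replicate 3. In the mutant it was 0.230 at a fold of at least 5 and 0.0942 to 0.208 with single libraries left out, the lowest without mutant replicate 1. The share on A chromosomes was 54.0% with at least 100 CPM. Held-out medians ran from 5.49 to 10.7, with 5.92 for mutant replicate 3 and WT replicate 2. Of 167 values under these settings 20 were classed as moved, 147 were not, and 0 reversed. Not every value had an interval to be classed by. The numbers of members and of calls had none: 178 and 89 members were classed as not moved, 274 and 50 as moved. The 147 include values that could not move, among them the 11 of the members' calls. The settings without the lower limit on the mutant mean or the no-overlap condition also kept the same 123 genes. The tally thus overstates how steady the results were. The setting outside the named stretches, the distance of 10 genes and the level of WT replicate 3 relative to the other WT libraries and the CV of other eligible genes with libraries left out were chosen after seeing the data. Deviations of libraries with the same number correlated at r = -0.07, 0.09 and 0.08, and those with different numbers at -0.17 to 0.14. The values gave no sign of pairing by number but cannot settle it, and the labels do not state it. The replicate block gave 14387 genes called lower against 14787 without it. All 123 members kept their calls, from which nothing is read, as the rule used this contrast. At this depth every member rests on at least 149 reads over the mutant libraries; in 10 members the mutant libraries varied no more than counting error.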
